A study of Rattus norvegicus with 7 samples.

Results

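The miR-200 family was measured in rat liver as 9 entries of a miRNA array, taken by name: rno-miR-200b, rno-miR-200a and rno-miR-429 with miR-200b* and miR-200a*, and rno-miR-200c and rno-miR-141 with miR-200c* and miR-141*. A star marks the less abundant arm of a precursor. The array held 677 miRNAs, so the family was 9 of 677, and it was read by 20 of 1644 probes. The livers came from adult male Sprague-Dawley rats, a common outbred strain, that ate either a control diet or a diet labelled 50 mg/kg that contained PFOS, the potassium salt of perfluorooctanesulfonate, which is a fluorinated surfactant that persists in the body. Both diets were given for 28 days. There were 4 PFOS arrays and 3 control arrays, each with Cy3-labelled total RNA of 1 rat. A further control array had been removed by the submitters after quality control, and no other allele or agent was named for either group.

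Members of the family come from a pair of precursor clusters on different chromosomes, and each cluster is processed from a shared primary transcript. The mature miRNAs are known from epithelial cells, where they repress the transcription factors Zeb1 and Zeb2. Zeb1 and Zeb2 in turn repress the miRNA genes through E-box sequences in their promoters, a mutual repression that is a textbook switch between epithelial and mesenchymal states. In normal liver the family is associated mainly with the epithelium of the bile ducts, which is a small share of the tissue beside the hepatocytes. In whole-liver RNA, fewer cells of a type and less RNA per cell cannot be told apart.

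The sequences show what the members share and how the clusters are laid out. In the RefSeq annotation of GRCr8, the assembly of the sequence table, the 3 hairpins of the cluster of miR-200b, miR-200a and miR-429 lie on the minus strand of chromosome 5 within 1908 bases: Mir200b at chr5:171931495-171931589, Mir200a at chr5:171930717-171930805 and Mir429 at chr5:171929682-171929766. The 2 hairpins of the other cluster lie on the minus strand of chromosome 4 within 509 bases: Mir200c at chr4:159209965-159210033 and Mir141 at chr4:159209525-159209618. All 5 hairpins were matched by name. They are given 5′ to 3′ because they show what sets the members apart, with capitals for the 7 bases that pair with targets (the seed, bases 2 to 8 of the mature miRNA) as found in miR-200c-3p or miR-141-3p:
Mir200b: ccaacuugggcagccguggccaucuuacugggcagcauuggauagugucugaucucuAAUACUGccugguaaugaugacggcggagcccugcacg
Mir429: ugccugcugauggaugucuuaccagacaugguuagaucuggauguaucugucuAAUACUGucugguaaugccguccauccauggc
Mir200c: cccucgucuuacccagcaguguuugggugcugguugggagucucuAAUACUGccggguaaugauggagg
Mir200a: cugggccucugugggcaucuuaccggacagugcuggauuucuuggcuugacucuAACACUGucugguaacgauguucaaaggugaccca
Mir141: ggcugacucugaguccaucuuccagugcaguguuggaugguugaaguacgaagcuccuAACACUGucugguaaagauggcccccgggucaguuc

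The mature forms of the chromosome 4 members are given because they show the pair of seeds complete, again with the seed in capitals:
miR-200c-3p: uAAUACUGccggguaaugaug
miR-141-3p: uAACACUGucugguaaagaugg

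Seed letters thus cut across the clusters. Mir200b, Mir429 and Mir200c carry AAUACUG, while Mir200a and Mir141 carry AACACUG. The 2 seeds differ by 1 base (U4C, counted from 1 at the 5′ end of the mature miRNA, with the miR-200c-3p base given before the position). Each string of 7 letters occurs in 4 of the 419 rat hairpins of the table, or 0.955%. Across the clusters the likeness goes beyond the seed. Over the 21 bases of miR-200c-3p the Mir200b hairpin differs at 1 position (G11U, with the miR-200c-3p base given before the position), and the Mir429 hairpin keeps 17 of the 21. Over the 22 bases of miR-141-3p the Mir200a hairpin differs at 2 positions (A17C and G22U). Mature entries were matched for miR-200c-3p, miR-141-3p and the 4 star arms, and miR-200b-3p, miR-200a-3p and miR-429-3p are named only.

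The detected members all came from the chromosome 5 cluster. Probes are spotted several times per array, and the scanner software marks each spot that is well above background. For miR-200b and miR-200a all PFOS spots were marked, 72 of 72 and 78 of 78. On the control arrays 38 of 60 spots of miR-200b and 28 of 55 of miR-200a were marked. For miR-429 the counts were 65 of 74 PFOS spots and 0 of 59 control spots. A miRNA counted as detected on an array if at least 1 of its probes had over 50% of its spots marked. By that definition miR-200b and miR-200a were detected on all 7 arrays, and miR-429 on all 4 PFOS arrays and no control array. Of the 175 miRNAs tested, miR-429 was the only one with that detection pattern (1 of 175, 0.571%). The marks are set before scaling, and the PFOS arrays were brighter, with a median unscaled signal of 226 to 326 against 133 to 176. They also had more miRNAs detected, 161 to 200 per array against 131 to 174. The part of array brightness in the counts of marked spots was not tested.

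The chromosome 4 cluster was not well above background in either group. For miR-200c 0 of 75 PFOS spots and 0 of 58 control spots were marked, and for miR-141 0 of 75 and 0 of 57. Their probe signals, after the scanner software's background subtraction and before scaling, ran from -4.54 to 0.032 for miR-200c and from -2.94 to 5.67 for miR-141. The negative control spots of the same arrays averaged 3.35 to 4.63. The highest miR-141 value, 5.67, was on control replicate 3. No fold is given for miR-200c or miR-141, since neither group has a measured level, and whether the clusters respond differently could not be tested. The same held for all 4 star arms, so that over the 6 members that were not detected, 0 of 813 spots on 14 probes were marked. On the array of PFOS replicate 4, where a miR-200b probe read 269, no miR-200c spot was marked. Whether probes of members so alike in sequence bind each other's miRNAs was not tested.

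**Figure D1:**
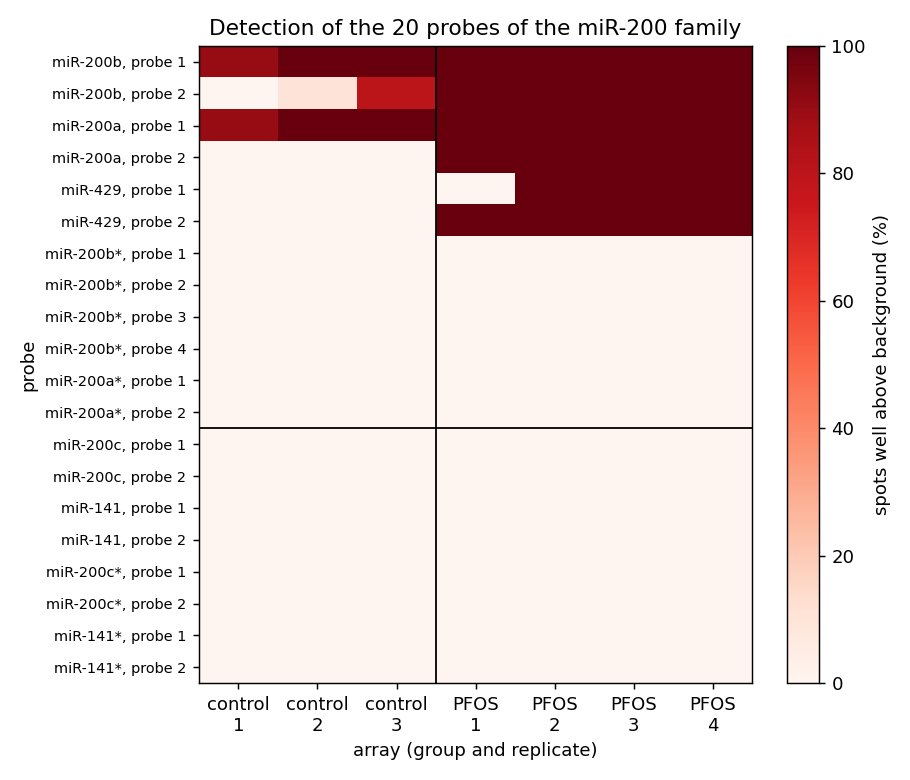
Share of spots well above background (colour, in percent) for each of the 20 probes of the family (rows, members of the chromosome 5 cluster above the horizontal line and of the chromosome 4 cluster below it) on each array (columns, controls left of the vertical line). The chromosome 5 members miR-200b, miR-200a and miR-429 account for every marked spot, and the 14 probes of the 6 other members have none on any array.

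The array also tested the opposite strand at both loci. Mir3548 is annotated on the plus strand over Mir200a, and Mir3575 on the plus strand over Mir200c. For each of these antisense miRNAs 0 of 137 spots were marked, with probe means from -4.21 to -0.75 for miR-3548 and from -7.07 to -2.97 for miR-3575. At both loci the antisense probes thus stayed at background.

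For miR-200b, which carries the AAUACUG seed and leads the chromosome 5 cluster in the direction of transcription, the normalised signal was 155, 164, 234 and 290 on the PFOS arrays (replicates 1, 2, 3 and 4). It was 26.5, 74.4 and 100.2 on the control arrays (replicates 1, 2 and 3). All 4 PFOS livers lay above all 3 control livers, and the lowest PFOS value was 1.55 times the highest control value. Geometric means of 204 for PFOS and 58.3 for control gave a log2 difference of 1.81 (SE 0.48, 95% interval 0.64 to 2.97), or 3.50-fold. In limma the unadjusted p was 0.00839 and the adjusted p 0.131 over the 175 tested miRNAs, which does not pass 0.05.

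For miR-200a, which carries the other seed, AACACUG, the normalised signal was 97.9, 115, 119.5 and 181 on the PFOS arrays and 24.4, 47.3 and 64.9 on the control arrays, in the same order of replicates. The groups again did not overlap, with the lowest PFOS value at 1.51 times the highest control value. The log2 fold change was 1.57 (SE 0.37, 95% interval 0.69 to 2.45), or 2.97-fold, with a limma p of 0.00433 and an adjusted p of 0.131.

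For miR-429, which shares its seed with miR-200b and lies last in the cluster, the normalised signal was 41.7, 34.7, 46.1 and 64.4 on the PFOS arrays. The control readings of 11.7, 16.1 and 24.6 were all below the detection limit. A bound was set per control array, at its own reading or at the dimmest detected miRNA, whichever was brighter. In the main processing the mean PFOS signal of miR-429 was 2.03 times that bound, a point value without an interval. Bounds set likewise for its 2 probes were lower, at 1.17-fold and 1.80-fold. Under another scaling, given below, the groups overlapped. The fitted log2 fold change, which rests on those sub-threshold readings and is no bound, was 1.45 (SE 0.30, limma adjusted p = 0.131).

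**Figure D2:**
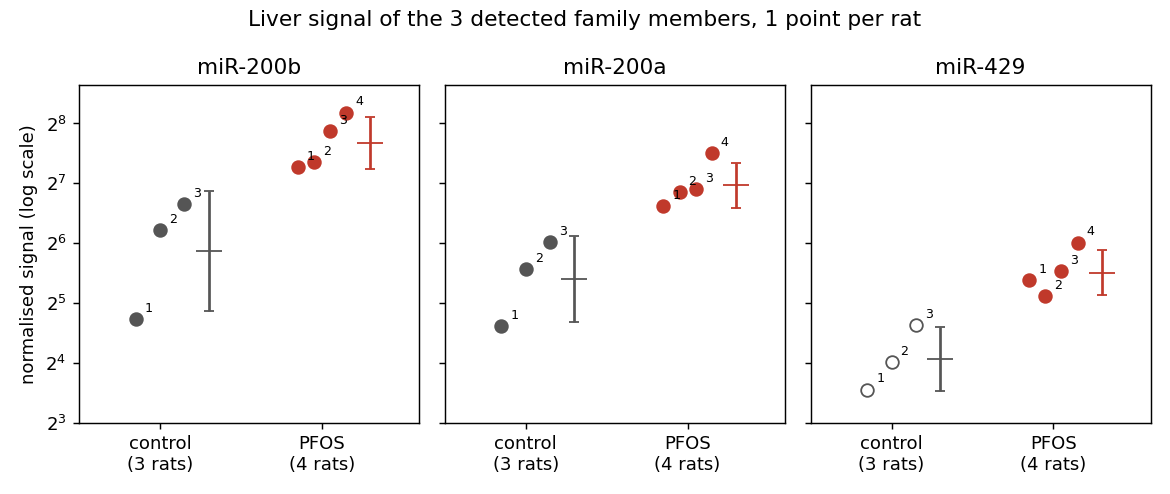
Normalised signal (log scale) of miR-200b, miR-200a and miR-429 in each rat, numbered by replicate, with the geometric mean and SD of the log2 values as bars (n = 3 control and 4 PFOS rats). Open points were not detected. The PFOS points lie above the control points in all 3 panels, control replicate 1 is the lowest and PFOS replicate 4 the highest in each.

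The same rats were at the extremes for all 3 miRNAs. Control replicate 1 had the lowest and control replicate 3 the highest control value of each, and PFOS replicate 4 had the highest PFOS value of each. The highest PFOS value was 1.87, 1.85 and 1.86 times the lowest for miR-200b, miR-200a and miR-429. The control values spread further, by 3.77 times for miR-200b, 2.66 times for miR-200a and, below detection, 2.10 times for miR-429. Without control replicate 1 the log2 differences were 1.32 for miR-200b, 1.24 for miR-200a and 1.24 for miR-429, with a limma adjusted p of 0.248 for each.

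The detected members were then compared with each other, as the difference of their log2 signals within each array. The fold change of miR-200b exceeded that of miR-200a by 0.24 on the log2 scale (95% interval -0.24 to 0.71, exact two-sided permutation p = 0.314). Adjusted over the 3 pairs of members the p was 0.471, where 35 splits of the arrays allow no p below 0.0286. No difference between miR-200b and miR-200a was shown. For miR-429 no control level was measured. Its pairs entered the adjustment over the 3 pairs, but their own p values rest on readings below detection and are not given. On its readings below detection, the log2 fold change of miR-200b was larger by 0.36 and that of miR-200a by 0.12, and with the scanner software's gene signal both differences turned, to -0.37 and -0.52.

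By log2 fold change in the main processing, the 3 members stood at ranks 1, 2 and 3 of the 175 tested miRNAs. Of the 3 members, miR-429 entered the test only through the PFOS arrays. The 3 members were the only tested miRNAs with a positive log2 fold change over 1 (3 of 175, 1.71%), with no control level measured for miR-429. The next were miR-221 at 0.67 (SE 0.21), a miRNA often raised in proliferating cells, and miR-455* at 0.66 (SE 0.19). In the other direction the most negative value was -1.30 (SE 0.56), so the family did not hold the only differences of that size. A positive log2 fold change was seen for 80 of 175 (45.7%). The median over all tested miRNAs was -0.02 and the median SE 0.14, so the family's standard errors of 0.30 to 0.48 were also well above the typical one. No miRNA passed an adjusted p of 0.05 in limma (0 of 175, 0%). At an unadjusted p under 0.05, 15 miRNAs were higher in PFOS livers (8.57%), the 3 members among them, and 34 differed in either direction (19.4%). Groups that do not overlap, with PFOS higher, were seen for 17 of 175 miRNAs (9.71%), again with the 3 members among them. As many miRNAs had groups that do not overlap with PFOS lower.

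**Figure D3:**
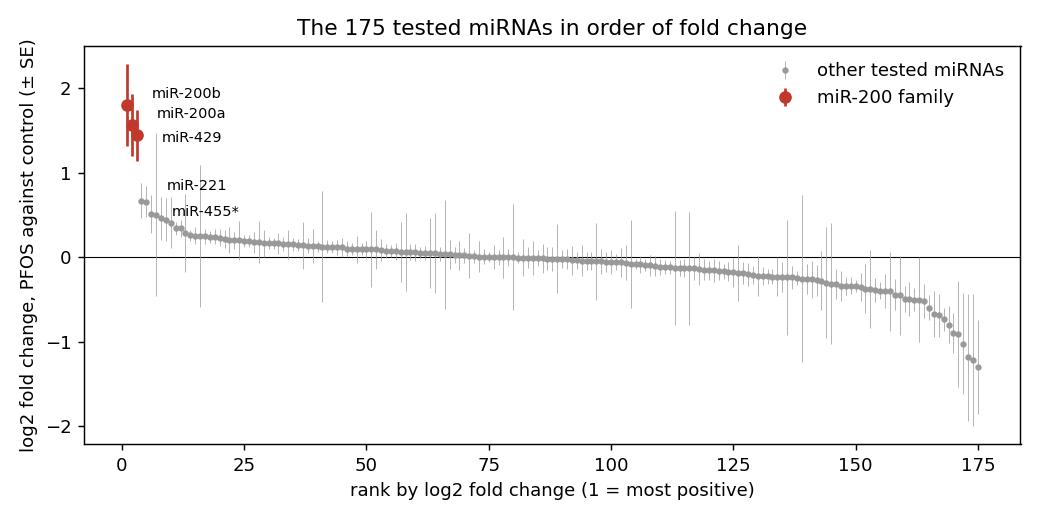
Log2 fold change of PFOS against control (± SE from limma) for the 175 tested miRNAs, in order from the most positive. The 3 members of the chromosome 5 cluster occupy ranks 1, 2 and 3 at 1.81, 1.57 and 1.45, and the next value is 0.67.

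Each detected member was read by 2 probes. The brighter miR-200b probe (A_26_P00001459) read 103 ± 6.47 (SD over 8 spots), 146 ± 11.8 (9 spots), 260 ± 32.9 (10 spots) and 269 ± 16.03 (10 spots) on the PFOS arrays before scaling. On the control arrays it read 16.9 ± 3.37, 34.4 ± 2.80 and 55.1 ± 5.01 (10 spots each). The lowest PFOS reading was above the highest control reading, on arrays that also differed in brightness. On the PFOS arrays, where both probes were detected, the ratio of this probe to the dimmer one was 2.38 to 2.63. For miR-200a the ratio of its probes was 2.75 to 3.32 on the PFOS arrays. Such a ratio carries no level, since probes differ in how they bind. No ratio is given for the control arrays or for miR-429, where 1 or both probes were below detection on at least 1 array.

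Fitted probe by probe, all 6 probes of the 3 members had groups that did not overlap, with PFOS higher. Over the 320 tested probes 40 did so (12.5%). Of the 6, all but the brighter probe of miR-200b and that of miR-200a were detected on at most 1 control array and entered the test through the PFOS arrays. The log2 fold changes were 1.77 (SE 0.48) and 1.91 (SE 0.40) for miR-200b, 1.62 (SE 0.35) and 1.51 (SE 0.30) for miR-200a, and 1.20 (SE 0.22) and 1.62 (SE 0.23) for miR-429. Of the 7 probes with a log2 fold change over 1 (2.19% of 320), 6 belonged to the family. Among these 6, both miR-429 probes and the dimmer miR-200a probe were detected on no control array. Their folds, SEs and lack of overlap thus rest on control values that were not measured. As bounds they were at least 1.17-fold (A_26_P00001572), 1.80-fold (A_26_P00001573) and 1.97-fold (A_26_P00001458) higher. None of these bounds reaches a log2 fold change of 1. At an unadjusted limma p under 0.05 there were 58 probes (18.1%), all 6 of the family among them. At an adjusted p of 0.05 in limma 2 probes passed, both higher in PFOS livers (0.625%). They were a miR-429 probe (A_26_P00001573, adjusted p = 0.0444) and a probe of miR-362* (log2 fold change 0.58, SE 0.08, same adjusted p). The probe A_26_P00001573 was detected on all 4 PFOS arrays and no control array, and 2 of its 3 control values were held at the floor set for dim signals. It thus entered the test only through the PFOS group, and its SE and adjusted p rest on control values that were not measured. Its fold is given by its bound, at least 1.80-fold. Leaving out any of the 7 arrays ended the call of this probe, as did scaling without loess, where no probe passed.

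**Figure D4:**
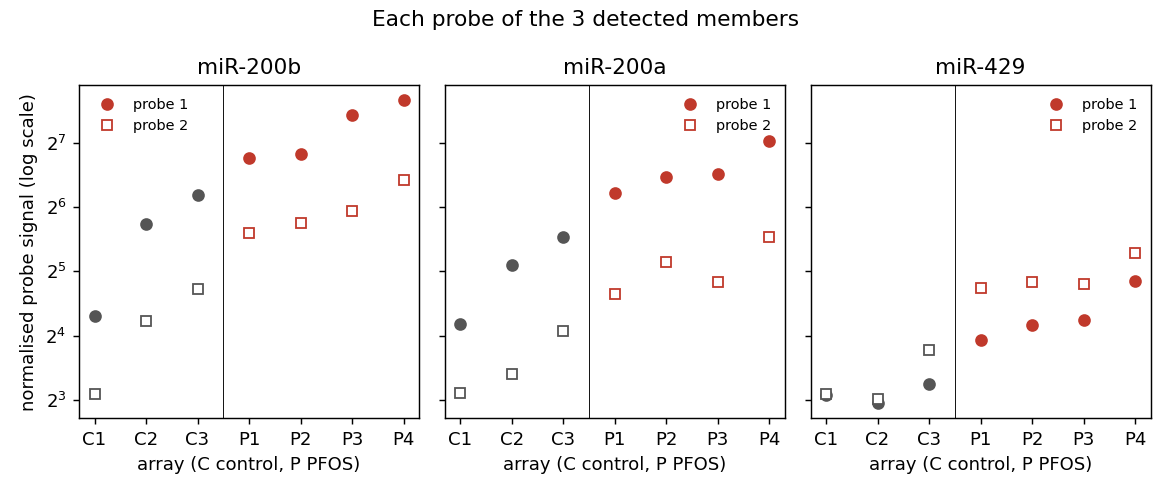
Normalised signal (log scale) of each of the 2 probes of miR-200b, miR-200a and miR-429 on the 7 arrays (C1 to C3 control in grey, P1 to P4 PFOS in red, filled circles for probe 1 and open squares for probe 2). Both probes of each miRNA are higher on every PFOS array than on any control array. Undetected points are not marked. Both miR-429 probes and the dimmer miR-200a probe were detected on no control array, so their control points are not measured levels.

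Array brightness moved with the groups and touches these values. The median unscaled signal of the miRNAs detected on all arrays was 226 to 326 on PFOS arrays and 133 to 176 on control arrays, a 1.74-fold ratio of means. The labelling spike-in, a synthetic RNA added before labelling, was 2.27-fold brighter on PFOS arrays, with 2432 to 3970 against 1231 to 1326. Each had an exact two-sided permutation p of 0.0286, the smallest possible, and 0.0857 adjusted over 6 array measures. The hybridisation spike-in, added after labelling, was 16790 to 18090 on PFOS and 17937 to 20132 on control arrays. Between 161 and 200 miRNAs were detected per PFOS array and 131 to 174 per control array, and no spot was saturated. The number of arrays limits the precision.

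Before any scaling the log2 differences of miR-200b, miR-200a and miR-429 were 2.54, 2.29 and 2.23. Scaling to the labelling spike-in brought them to 1.38, 1.14 and 1.08, at ranks 1, 2 and 3, with a median of -0.45 over all tested miRNAs. Under that scaling the groups overlapped. The miR-200b signal of PFOS replicate 1 was then 118, below control replicate 3 at 124. For miR-200a the corresponding values were 71.3 and 80.5, and for miR-429 27.3 and 31.6. PFOS replicate 1 was the dimmest PFOS array, with a median of 226 and 161 detected miRNAs, and had the lowest PFOS value of miR-200b and miR-200a. Control replicate 1 was the brightest control array, with a median of 176 and 174 detected miRNAs, and had the lowest value of each member. PFOS replicate 3 was the brightest PFOS array at 326, and PFOS replicate 4, at 244, had the highest value of each member. The part of labelling in the difference between the groups was not tested.

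The arrays lay in 2 rows of 1 slide. In slide row 1, with 2 PFOS arrays and 1 control array, the log2 differences were 2.58 for miR-200b, 2.12 for miR-200a and 1.70 for miR-429. In slide row 2, with 2 arrays of each group, they were 1.59, 1.41 and 1.45. With slide row as a block in limma the log2 fold change was 1.99 (SE 0.25, adjusted p = 0.0259) for miR-200b and 1.69 (SE 0.24, adjusted p = 0.0278) for miR-200a. Both passed. For miR-429 it was 1.55 (SE 0.21, adjusted p = 0.0259), a pass that rests on control readings below detection. In that fit 4 of 175 miRNAs passed, miR-429 included, 3 higher and 1 lower. Control replicate 1, the lowest for each member, was the only control of its row.

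**Figure D5:**
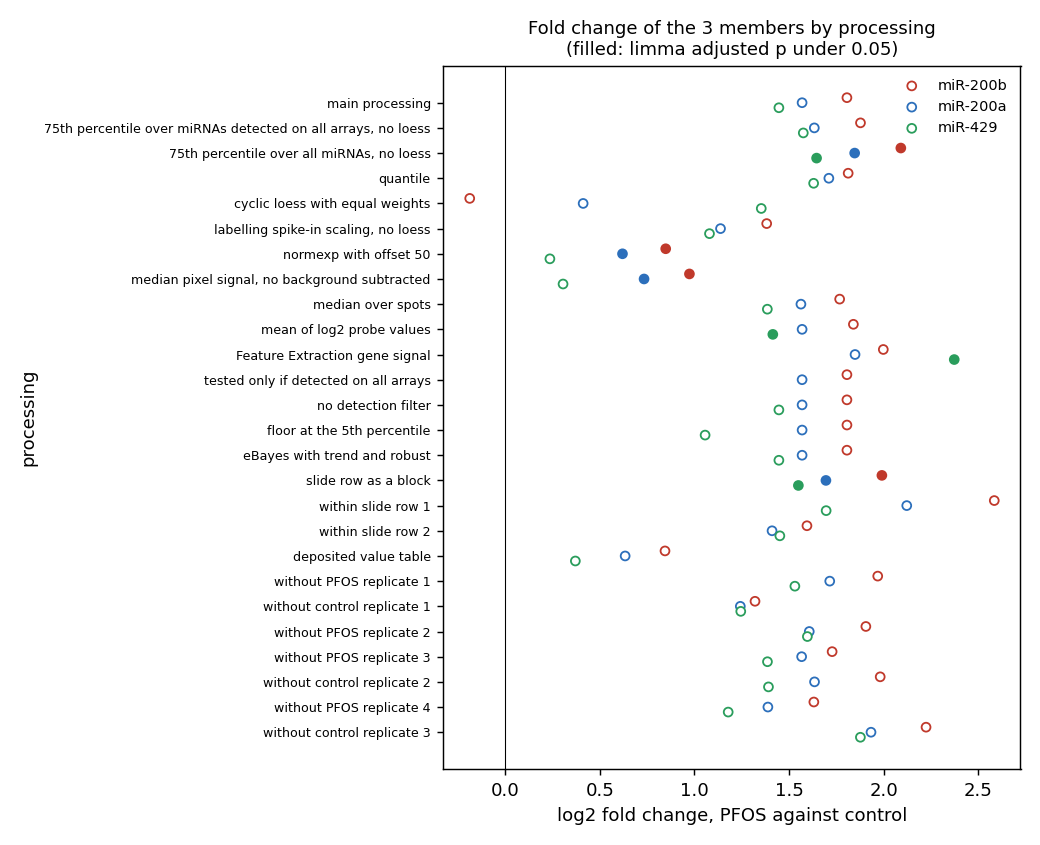
Log2 fold change of miR-200b, miR-200a and miR-429 (colours) under each way of processing the arrays (rows), with filled points where the limma adjusted p was under 0.05 (the values within a slide row have no test). Filled points of miR-429 rest on control readings below detection. All values lie above 0 except that of miR-200b under cyclic loess with equal weights (-0.19), and those from normexp, the unsubtracted median signal and the deposited value table lie nearer to 0.

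The authors' deposited table, which holds their own log2 values, put the members in the same order. In the authors' deposited table miR-200b ran from 6.83 to 7.54 on PFOS arrays and from 5.96 to 6.58 on control arrays. The limma log2 fold changes from the authors' deposited table were 0.84 (SE 0.21, adjusted p = 0.063) for miR-200b, 0.63 (SE 0.16, adjusted p = 0.0597) for miR-200a and 0.37 (SE 0.11, adjusted p = 0.0896) for miR-429. How background was treated in the authors' deposited table is not given in the sources used here. In the authors' deposited table miR-200c lay between 5.34 and 5.43, below the column medians of 5.48 to 5.51. By the detection rule used here 458 of the 677 miRNAs were detected on no array, so those medians are no measure of an expressed level.

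Other epithelial miRNAs were read beside the family. Of 7 listed, all on the array, miR-205, miR-183 and miR-375 were detected on no array, miR-182 on 1, and 3 were tested. Log2 differences were 0.20 (SE 0.15) for miR-203, a miRNA of differentiating skin epithelium, 0.29 (SE 0.46) for miR-96 and -0.01 (SE 0.12) for miR-31. None passed (0 of 3, beside 0% over all tested miRNAs), their groups overlapped, and their median was 0.20 beside -0.02 over all tested miRNAs. Their summed signal was 379.6 to 512 on PFOS and 359.7 to 475 on control arrays. Under labelling spike-in scaling their median was -0.25, beside -0.45 over all tested miRNAs.

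Other miRNAs described as acting on Zeb1 or Zeb2 gave 4 tested of 7, and 0 passed. The log2 fold changes were 0.20 (SE 0.07) for miR-101a, whose groups did not overlap, 0.10 (SE 0.09) for miR-101b and -0.09 (SE 0.07) for miR-192, with miR-203 as above. Their median of 0.15 became -0.28 under labelling spike-in scaling, where that over all tested miRNAs was -0.45. The mRNAs of Zeb1, Zeb2 and their targets were not analysed here.

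Markers of the other liver cells were measured beside the family. All 4 hepatocyte miRNAs (miR-122, miR-122*, miR-192 and miR-194) were detected on all 7 arrays, with a median log2 fold change of -0.10 and 0 passing. The groups did not overlap for miR-122* (-0.25, SE 0.08), which was lower on PFOS arrays. Over all tested miRNAs, such separation with PFOS lower was as common as with PFOS higher (17 of 175, 9.71%). Of 8 mesenchymal and stellate cell miRNAs 7 were tested and 0 passed, with a median of -0.04 and miR-221 as the most positive. Their groups did not overlap for miR-145 (-0.23, SE 0.09) and miR-10b (-0.22, SE 0.11), both undetected on the control arrays, and signals set to the floor throughout come out at -0.15 after loess. Of 5 leukocyte and Kupffer cell miRNAs 4 were on the array and tested, at a median of 0.04. The medians were 0.01 for the 2 endothelial miRNAs and -0.10 for the 2 erythroid ones, again with 0 passing. Summed signals overlapped between the groups in each of these lists, such as 821 to 1125 on PFOS and 864 to 1086 on control arrays for the mesenchymal list. The sign of these medians turned under at least 1 scaling. The median over all tested miRNAs itself ran from -0.45 to 0.25 over the scalings. The part of cell composition in the family's values was not tested.

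The miRNAs whose pattern over the 7 arrays was nearest to that of miR-200b and miR-200a were found by the root mean square distance of log2 signals, each taken relative to its control mean. The distance was 0.30 for miR-429, whose control readings were below detection. Outside the family it was 0.90 for miR-221, 0.95 for miR-455*, 1.13 for miR-193*, 1.15 for miR-29c and 1.17 for miR-32, against a median of 1.43 over the 172 other tested miRNAs. Of these 5, miR-29c, which represses collagen transcripts, was the only one detected on all 7 arrays, with a log2 fold change of 0.35 (SE 0.08). The distance also counts the size of the difference between the groups. By log2 fold change, miR-221, miR-455* and miR-193* were at ranks 4, 5 and 6, miR-32 at 10 and miR-29c at 11. The distance is thus no separate evidence of a shared pattern. The gap between 0.30 and 0.90 describes these arrays and carries no test.

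Because the 3 detected members are neighbours on chromosome 5, the annotated transcript that spans them was examined. LOC106182250, a long noncoding RNA on the same strand, covers chr5:171928488-171935853 and so all 3 hairpins, and the annotated span of the protein-coding gene Ttll10 covers them too. Whether the hairpins are exonic or intronic in it was not analysed here. The 300 bases around the start of LOC106182250 (chr5:171935804-171936103, minus strand, 250 bases before to 50 after the start) lie 4214 bases upstream of the Mir200b hairpin. They are given 5′ to 3′ with capitals for the E-box that Zeb proteins are known to bind, searched as CAGGTG and its reverse complement CACCTG, so that both strands are covered:
LOC106182250 start region: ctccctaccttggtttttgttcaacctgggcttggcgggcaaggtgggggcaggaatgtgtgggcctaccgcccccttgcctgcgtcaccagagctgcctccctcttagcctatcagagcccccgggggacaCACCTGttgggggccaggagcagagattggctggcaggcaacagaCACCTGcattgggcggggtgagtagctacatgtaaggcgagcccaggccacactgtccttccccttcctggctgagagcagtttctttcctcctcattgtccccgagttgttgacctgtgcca

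The window held 2 such E-boxes, starting 118 and 73 bases before the start site. At least 1 was found in 18.8% of the 33469 rat start regions of the same length, and at least 2 in 2.52%. A match of letters is no evidence of binding in these livers, and the arrays measured no promoter activity. For the chromosome 4 cluster the gene table listed the antisense Mir3575 as the only other gene that overlaps it.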

How the data were processed

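Total RNA from 7 rat livers was hybridised to 1-colour Agilent miRNA arrays, and groups were taken from the sample titles. Per the file headers, Feature Extraction 10.7.3.1 made the spot intensity values. The processed signal is background-subtracted and not normalized between arrays. The flags (such as well above background) are 0 or 1 in the deposited files. The deposited value table holds log2 values normalized by the authors with cyclic lowess, per the labels, with settings and test not given in the sources used here. Its columns follow signal, without centring per miRNA.

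Spots without outlier flags were averaged per probe and probes summed per miRNA. Arrays were scaled to the 75th percentile over miRNAs detected on all arrays, floored at 12.1 (the 1st percentile of detected values), log2-transformed and normalized by cyclic loess (span 0.7, 3 iterations, weighted to the miRNAs detected on all arrays). Probes were treated likewise. Tested were miRNAs detected on all 3 control arrays or at least 3 PFOS arrays, in limma 3.58.1 under R 4.3.3 (lmFit, then eBayes), and Benjamini-Hochberg adjustment over all of them (threshold 0.05, 6.51 degrees of freedom). The steps were also run on simulated data with normal noise and planted differences, and the outcome is not given here. Pairs of members and array measures were compared by exact permutation. Every member and probe is named, with listed miRNAs, the 5 nearest in pattern and the next 2 in rank. A probe of miR-362* was named after its value was seen. The members and lists were chosen with earlier results of these data known. Sequences are from RefSeq (GRCr8), another assembly than the array's design (rn4), so no position was taken from the array.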

Additional observations from a re-analysis of the deposited data

Results flagged for a closer look

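Of 21 measures of the 4 PFOS arrays screened for an array far from the other 3, 1 stood out, and chance gives about 1 in 20 such groups. It was the normalised log2 signal of the miR-429 probe A_26_P00001573 on PFOS replicate 4, at 5.29, where the other PFOS arrays lay between 4.75 and 4.83. PFOS replicate 4 also had the highest normalised signal of miR-200b and miR-200a. Without this array the log2 fold change of miR-429 over both probes was 1.18, against 1.45 with it.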

How the results depend on the processing

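Other settings numbered 18 for miR-200a and miR-200b and 17 for miR-429. All log2 fold changes were positive except that of miR-200b under cyclic loess with equal weights, at -0.19 (SE 2.31, against 0.48). In that setting miR-200a was at 0.41 and miR-429 at 1.35. The ranks of miR-200b, miR-200a and miR-429 were then 63, 43 and 18, and the cause was not tested. All 3 members passed with all miRNAs in the 75th percentile and no loess (2.09, 1.85 and 1.65 for miR-200b, miR-200a and miR-429) and with slide row as a block (1.99, 1.69 and 1.55). In both, the pass of miR-429 rests on control readings below detection. Only miR-200b and miR-200a passed with normexp (0.85 and 0.62, with miR-429 at 0.24) and with the unsubtracted median signal (0.97 and 0.73, with miR-429 at 0.31). Of the members only miR-429 passed with the mean of log2 probe values (1.41) and with the scanner software's gene signal (2.37). As miR-429 entered the test only through the PFOS arrays, these passes too rest on control values that were not measured. Within slide row 1 the differences were 2.58 and 2.12 for miR-200b and miR-200a. The limma adjusted p of miR-200b and miR-200a ran from 0.0259 to 0.964 over these settings. For miR-429 it ran from 0.00222 to 0.884, on control readings below detection.

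The count of miRNAs past the threshold, 0 in the main processing, was 3 with all miRNAs in the 75th percentile, 8 (all lower) under labelling spike-in scaling, 22 (6 higher, 16 lower) with normexp, 20 (5 higher, 15 lower) with the unsubtracted median signal, 2 with the mean of log2 probe values, 1 with the gene signal, 1 without a detection filter, 4 with slide row as a block and 9 (all lower) in the authors' deposited table. The cause was not tested. Where miR-429 passed, it is in these counts on control readings below detection. Probes past the threshold were 2, or 0 without loess. On control readings of miR-429 below detection, the difference between miR-200a and miR-429 was 0.38 with normexp, 0.43 with the unsubtracted signal and -0.52 with the gene signal, where that between miR-200b and miR-429 was -0.37.

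Leaving out 1 array at a time, the log2 fold change was 1.32 to 2.22 for miR-200b, 1.24 to 1.93 for miR-200a and 1.18 to 1.88 for miR-429, with 0 miRNAs and 0 to 3 probes past the threshold. The differences ran from 0.078 to 0.35 (miR-200b and miR-200a), 0.075 to 0.59 (miR-200b and miR-429) and -0.0025 to 0.24 (miR-200a and miR-429). No paired analysis was possible because replicate numbers only name the arrays. Signals near background limit miR-429, miR-200c, miR-141 and the star arms most.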
